A study of Equus caballus with 4 samples.

Results

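The genes described here build and organise the muscle side of the neuromuscular junction. They encode the 5 subunits of the muscle acetylcholine receptor (CHRNA1, CHRNB1, CHRND, CHRNE and CHRNG) and the agrin pathway that gathers receptors under the nerve ending (AGRN, LRP4, MUSK, DOK7 and RAPSN). Members were the gene probes on the array whose name was exactly one of these 10 symbols. This gave 9 genes with 1 probe each, out of 24998 different gene names on 43603 gene probes in all. No probe bore the name AGRN. A probe with the array name LOC100066334 belongs to AGRN by its RefSeq gene ID, and its signals are given beside the others. Each of the 10 genes thus had 1 probe, printed as 1 spot on each array, so that no gene could be checked with another probe of its own.

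The cells were equine satellite cells, the stem cells of skeletal muscle, cultured from m. semitendinosus and measured on the 3rd day of differentiation. Treated cultures received gamma-oryzanol (GO, ferulic acid esters of plant sterols found in rice bran oil) at 0.125 µM for 24 h, with hydrogen peroxide (H2O2) at 3 mM over the last 1 h. Control cultures were differentiated over the same days without GO. Whether H2O2 was added to them is not in the labels, while in the study's text they too were exposed. All cultures came from a single primary line. The 4 biological replicates thus stand for cultures and not for different horses. Treated RNA was labelled with Cy5 (red) and control RNA with Cy3 (green) on each of 4 arrays of 1 slide. No array had the dyes swapped, so a difference between dyes and a difference between treatments cannot be told apart. The label of every control channel ends in replicate 1, whereas the design text counts 4 control replicates. If the control were 1 common RNA, the SDs, intervals and p-values below would leave out the spread between control cultures. The comparison addresses which transcripts differ between these treated and control cultures. Had the controls received no H2O2, a difference due to GO and one due to H2O2 could not be told apart.

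At the junction the motor nerve releases agrin, which binds LRP4 on the muscle fibre. LRP4 then activates the receptor tyrosine kinase MUSK, with DOK7 as its cytoplasmic activator, and the scaffold protein RAPSN anchors the receptors in clusters. The fetal receptor contains the gamma subunit CHRNG, which is replaced by the epsilon subunit CHRNE in innervated adult muscle. Cultured myotubes without nerve are known for expressing the fetal form.

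The array probes are 60 bases long, and the results below rest on single sequences. Those of the receptor subunits with a fetal or adult role, of the neighbouring and principal subunits, and of the pair of signalling genes that passed the test are shown 5′ to 3′. Capitals mark the longest run that a probe of another gene on the array, of a different sequence, also holds on the same strand.
CHRNG: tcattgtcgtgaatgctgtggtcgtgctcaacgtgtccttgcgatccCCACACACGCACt
CHRNE: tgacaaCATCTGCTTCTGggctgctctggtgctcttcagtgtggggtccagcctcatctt
CHRND: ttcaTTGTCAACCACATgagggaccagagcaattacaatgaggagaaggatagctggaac
CHRNA1: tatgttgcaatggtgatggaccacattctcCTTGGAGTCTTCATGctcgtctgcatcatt
LRP4: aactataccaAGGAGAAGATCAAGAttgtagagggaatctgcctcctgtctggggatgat
DOK7: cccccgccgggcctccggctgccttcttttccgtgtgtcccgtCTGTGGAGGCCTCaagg
These shared runs are 12 bases for CHRNG and CHRNE, 13 for CHRND and DOK7, and 15 for CHRNA1 and LRP4. Over all 10 probes they are 12 to 15 bases, with the probes of the other subunits included in the search. Probes identical over all 60 bases under another gene name were left out of it. The share of G and C is 55% in CHRNG and CHRNE, 45% in CHRND, CHRNA1 and LRP4, and 70% in DOK7.

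In build EquCab1, the build of the array files, the probe of CHRNG lies at chr6:19651906-19651965 on the plus strand. The probe of CHRND lies at chr6:19641367-19642215 on the same strand, 9691 bases away. The span of 849 bases for a probe of 60 bases means that its sequence is not continuous in the genome. The probe of CHRNE is at chr11:48423240-48423299 (plus strand), 0.813 Mb from that of CHRNB1 at chr11:49236420-49236986 (plus strand). CHRNA1 was probed at chr18:41938387-41938446 on the minus strand. The probes of LRP4 (chr12:8746456-8746515) and RAPSN (chr12:9182800-9182864) are both on the minus strand of chromosome 12. That of MUSK is at chr25:19672279-19672338 (minus strand). Those of DOK7 (chrUn:207861652-207861711) and AGRN (chrUn:254036230-254036289) lie in sequence not placed on a chromosome. Exons, introns and untranslated regions were not assigned, since no annotation of this build was used here.

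Values are given in 2 forms. The scanned signal is the mean brightness of a spot in arbitrary units, against a local background of about 35 to 56 for these spots. The log2 ratio is that of treated over control after background correction and loess normalisation within each array, so a positive value means more signal with GO and H2O2. A ratio was tested where 1 channel or both exceeded background clearly on every array, which held for 8 of the 9 exact-name probes. The test was limma on the mean of 4 arrays against 0, with Benjamini-Hochberg adjustment over all 24229 tested probes and a threshold of 0.05. Signals of different probes are not set against each other, since probes differ in how strongly they bind.

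**Figure D1:**
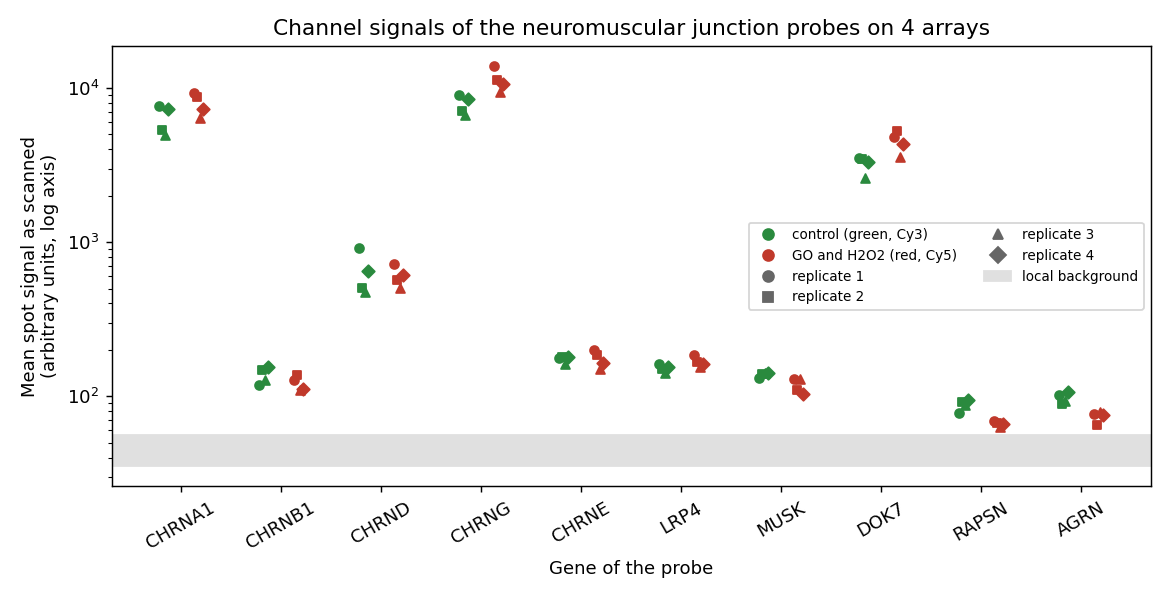
Scanned mean spot signal (arbitrary units, log axis) of the 10 probes in control (green) and treated (red) channels, with 1 symbol per array and the range of local background in grey. Signals of CHRNG, CHRNA1 and DOK7 lie far above the background band, whereas both channels of RAPSN and AGRN lie close to it.

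CHRNG, LRP4 and DOK7 were higher with GO and H2O2, by 1.14-fold, 1.18-fold and 1.14-fold. None of the other 5 tested genes (CHRNA1, CHRNB1, CHRND, CHRNE and MUSK) passed the threshold, and none passed as lower. Thus 3 of 8 tested members were called, where 17.1% of all tested probes were called in either direction, 9.49% as higher and 7.59% as lower. At a fold change of at least 1.3, limma called 0 members, against 1.42% of all tested probes. That limit is in the study's methods, while its list of changed genes also held smaller changes. At any fold, an unadjusted p under 0.05 was found for 4 of 8 members and for 8899 of all 24229 tested probes. The median log2 ratio of the 8 was 0.04, and over all tested probes it was 0.003. The median absolute ratio was 0.12 against 0.09. All 4 arrays gave ratios of 1 sign for 4 of 8 members and for 43.8% of all tested probes. In bulk RNA, more cells of a type and more RNA per cell cannot be told apart, which holds for every ratio given here.

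**Figure D2:**
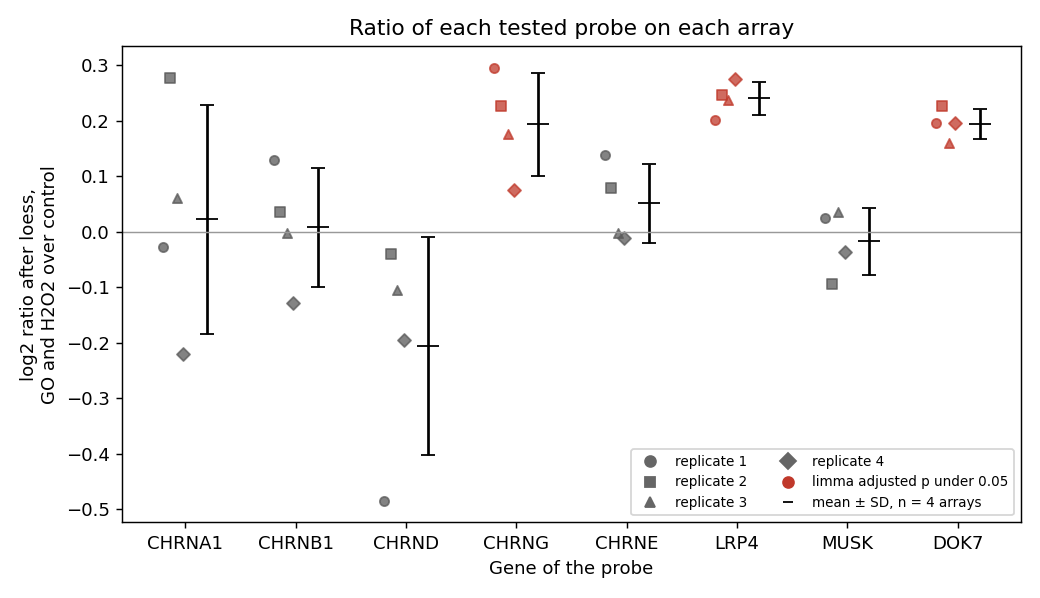
Log2 ratio of GO and H2O2 over control for each of the 8 tested probes on 4 arrays (symbols), with mean and SD (n = 4). All 4 arrays of CHRNG, LRP4 and DOK7 lie above 0 and all 4 of CHRND below it, while those of CHRNA1, CHRNB1, CHRNE and MUSK lie on both sides.

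CHRNG encodes the gamma subunit that defines the fetal receptor. Its probe had treated signals of 13910, 11293, 9443 and 10606 on replicates 1 to 4, and control signals of 8991, 7139, 6677 and 8434. The lowest treated signal exceeded the highest control signal, so the channels did not overlap as scanned. How many of all probes did the same was not counted. Channels were also separate as scanned for DOK7 in the same direction, and for MUSK, RAPSN and AGRN with treated below control. The normalised log2 ratios were 0.30, 0.23, 0.18 and 0.07. Replicate 1 was highest and replicate 4 was close to 0. The mean was 0.19 ± 0.09 (SD, n = 4; 95% interval 0.08 to 0.31; limma adjusted p = 0.0408). Before loess the ratios had been 0.64, 0.67, 0.51 and 0.33, since the normalisation lowered red relative to green by 0.26 to 0.44 at this probe's brightness. The call was lost when any single array was left out, with an adjusted p of 0.0739 to 0.148 and a mean of 0.16 to 0.23.

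CHRNE encodes the epsilon subunit of the adult receptor. Its treated signals were 199, 186, 151 and 163, and its control signals 177, 181, 162 and 180. The channels overlapped, and both were well above background on all 4 arrays, so a transcript matching this probe was detected in these cultures. The log2 ratios were 0.14, 0.08, −0.001 and −0.01. They gave a mean of 0.05 ± 0.07 (95% interval −0.05 to 0.15; limma adjusted p = 0.427). With Agilent's processed signals the mean was 0.15, which did not pass either (adjusted p = 0.129).

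Fetal and adult subunits were compared within arrays. The log2 ratio of CHRNG exceeded that of CHRNE by 0.16, 0.15, 0.18 and 0.09 on replicates 1 to 4, a mean difference of 0.14 ± 0.04 with CHRNG higher on 4 of 4 arrays. In the two-sided exact sign-flip permutation test this gave p = 0.125, the smallest value that 4 arrays allow. The design therefore cannot place this difference past a threshold of 0.05. The mean difference was 0.10 to 0.19 under the other normalisations, background corrections and samples left out. With median centring the difference was −0.06 on replicate 1, so that CHRNG was higher on 3 of 4 arrays (exact permutation p = 0.25). It is a difference between changes and says nothing of the amount of one subunit over the other.

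CHRND encodes the delta subunit, present in both receptor forms. Its treated signals were 724, 571, 506 and 616 and its control signals 917, 505, 474 and 654, so the channels overlapped. The log2 ratios were −0.48, −0.04, −0.10 and −0.19, below 0 on every array, and replicate 1 was the lowest. Before loess the ratios had been −0.18, 0.25, 0.28 and −0.05, so the sign on replicates 2 and 3 came with the normalisation. The mean of −0.21 ± 0.20 (95% interval −0.39 to −0.03) had an unadjusted p of 0.0304 and did not pass after adjustment (limma adjusted p = 0.101). Without replicate 1 it was −0.11. Thus the neighbouring genes CHRND and CHRNG had normalised ratios on opposite sides of 0 on all 4 arrays, which before normalisation held on replicates 1 and 4 alone. Their difference was 0.78, 0.27, 0.28 and 0.27 (mean 0.40 ± 0.25), and the pair was picked out after its values were seen. The exact sign-flip permutation test again gave p = 0.125. It must give this value whenever all 4 differences have 1 sign, so for this pair it adds no support.

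CHRNA1 encodes the alpha subunit, which carries most of the binding site for acetylcholine. The probe was bright, with treated signals of 9307, 8692, 6436 and 7353 and control signals of 7678, 5380, 4978 and 7267. The channels overlapped. Its log2 ratios were −0.03, 0.28, 0.06 and −0.22, the widest spread of the 8 tested members. Replicates 2 and 4 lay on opposite sides of 0, and the mean was 0.02 ± 0.21 (95% interval −0.16 to 0.21; limma adjusted p = 0.854). The interval holds a rise as large as that of CHRNG. Without replicate 2 the mean was −0.06.

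CHRNB1 encodes the beta subunit of both receptor forms. Treated signals were 127, 136, 110 and 112 and control signals 119, 148, 127 and 156, again overlapping. The log2 ratios were 0.13, 0.04, −0.003 and −0.13, with a mean of 0.01 ± 0.11 (95% interval −0.11 to 0.13; limma adjusted p = 0.924). Its mean was −0.03 without replicate 1 and −0.001 without replicate 2.

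LRP4, the receptor for agrin, had the smallest p-value of the members. The probe was dim but well above background, with treated signals of 184, 166, 154 and 161 and control signals of 162, 151, 141 and 154. As scanned, red exceeded green on each array, while the ranges of the channels overlapped. After normalisation the log2 ratios were 0.20, 0.25, 0.24 and 0.28, close together on all arrays. The mean was 0.24 ± 0.03 (SD, n = 4; 95% interval 0.15 to 0.33; limma adjusted p = 0.0183). Before loess they had been 0.78, 0.39, 0.66 and 0.29, so the small spread appeared only after the correction of −0.57, −0.14, −0.42 and −0.01 for spots of this brightness. Without replicates 1, 3 or 4 the mean stayed at 0.23 to 0.25 and the adjusted p was 0.0820, 0.0609 and 0.0841. Without replicate 2 the call was kept (0.0274).

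DOK7, the adaptor that drives MUSK activity from inside the cell, had treated signals of 4780, 5273, 3588 and 4353. Its control signals were 3489, 3450, 2616 and 3324, all below the lowest treated signal. The log2 ratios were 0.20, 0.23, 0.16 and 0.20, and their SD of 0.03 was the smallest among the members, whose median SD was 0.08 (0.09 over all tested probes). The mean was 0.19 ± 0.03 (95% interval 0.10 to 0.28; limma adjusted p = 0.0247). Before loess they had been 0.48, 0.62, 0.48 and 0.40, so the normalisation shifted them by −0.20 to −0.39. The separation of the channels as scanned thus includes this general offset at the probe's brightness. How many of all probes had separate channels was not counted. The adjusted p was 0.103, 0.0664 and 0.0953 without replicates 1, 3 and 4, and 0.0455 without replicate 2.

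MUSK, the kinase activated through LRP4, had treated signals of 129, 110, 130 and 103 and control signals of 132, 139, 142 and 140. The probe was dim but well above background, and as scanned all treated signals lay below the lowest control signal. Before loess the log2 ratios had been 0.67, −0.01, 0.46 and −0.09. After normalisation they were 0.02, −0.09, 0.04 and −0.04, without a common direction. The mean was −0.02 ± 0.06 (95% interval −0.12 to 0.08; limma adjusted p = 0.792), and it was 0.008 without replicate 2. The upper limit of this interval lies below the mean of LRP4, though a test of the difference between these genes was not run.

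RAPSN and AGRN could not be compared between treatments. RAPSN, the scaffold that clusters receptors, had treated signals of 69, 67, 63 and 66 and control signals of 77, 91, 88 and 94, not well above background in either channel on any array. Its log2 ratios of 0.08, 0.03, 0.01 and 0.10 are those of background-level spots. AGRN, which encodes agrin, had treated signals of 77, 65, 78 and 75 and control signals of 103, 89, 94 and 106, and was well above background only on 1 array in the control channel. Its log2 ratios were −0.17, 0.01, −0.01 and −0.03. No fold change is given for these genes.

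The 3 calls depended on the normalisation and on single arrays. The number of members called was 0 with median centring (4 at an unadjusted p under 0.05), 0 without replicates 1, 3 or 4 (3, 4 and 3 unadjusted) and 2 without replicate 2. Over all tested probes limma called 2, 3898, 38 and 0 without replicates 1 to 4, where 6485, 8638, 7309 and 6694 had an unadjusted p under 0.05. With median centring 5040 of all tested probes had an unadjusted p under 0.05.

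**Figure D3:**
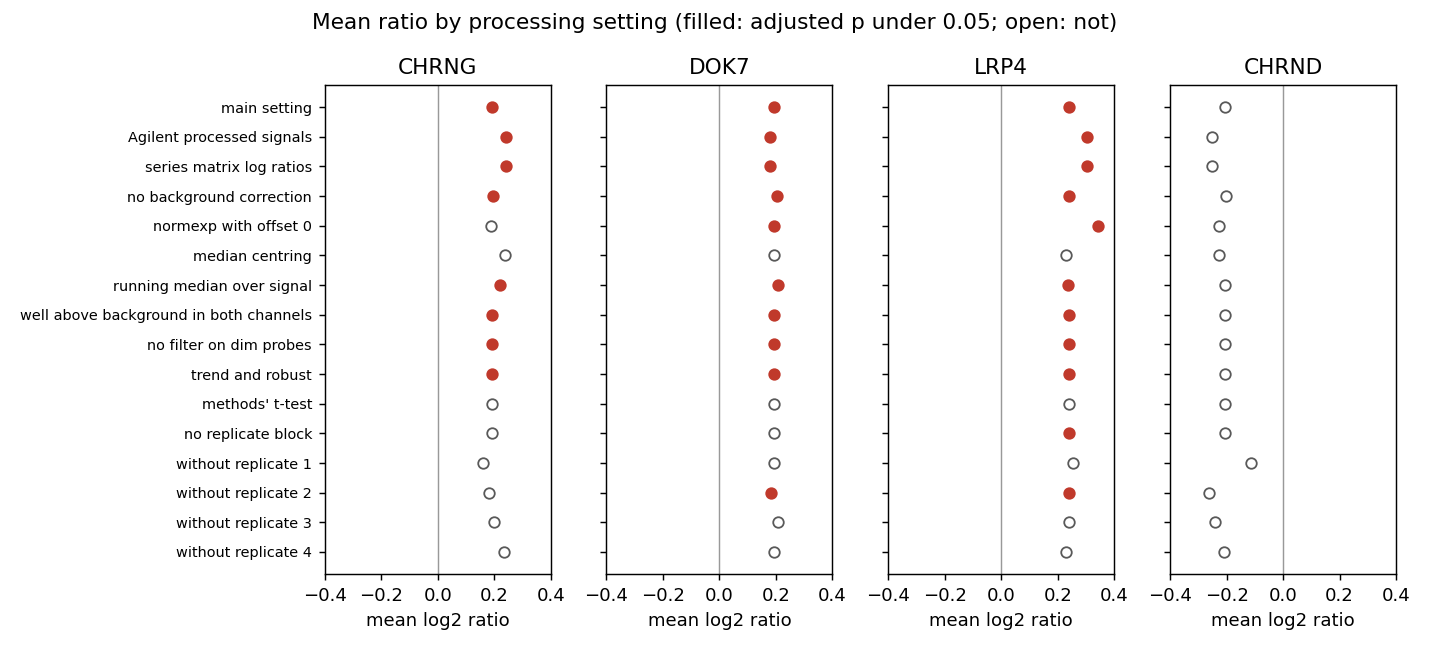
Mean log2 ratio of CHRNG, DOK7, LRP4 and CHRND under the main processing and 15 alternatives, filled where the adjusted p is under 0.05. The means of CHRNG, DOK7 and LRP4 stay above 0 and those of CHRND below 0 throughout, while the calls are lost under median centring, the methods' t-test and without replicates 1, 3 or 4. Both other filters, the trend and robust fit, the methods' t-test and the fit without pairing keep the main mean by construction. The series matrix holds the same ratios as Agilent's processed signals.

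Other genes of the junction were taken from 5 lists covering 91 genes, of which 51 were tested by their brightest probe. Among them 7 rose and 0 fell in the limma fit (13.7% called, beside 17.1% of all 13690 tested genes), and their median log2 ratio was 0.03. An unadjusted p under 0.05 was found for 21 of the 51, and for 8899 of all 24229 tested probes. The number called was 0 without replicates 1, 3 or 4 and 0 with median centring. With Agilent's processed signals it was 10, of which 6 were higher and 4 lower.

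The list of agrin and MuSK signalling partners (DVL, ABL, PAK, RAC and SRC family genes and others) had 20 of 25 genes tested, with ratios of −0.19 to 0.26 and a median of 0.03. Only PTPN11 passed, a tyrosine phosphatase that counters MUSK signalling (0.26 ± 0.14, limma adjusted p = 0.0332). On replicate 1 its ratio was 0.06 and on the others 0.29 to 0.37.

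Of the genes for synaptic transcription and neuregulin signalling, 7 of 16 were tested, with a median of 0.15. MYOG, a myogenic factor that binds receptor gene promoters, rose in both of its probes. Its brightest probe had 0.33 ± 0.13 (limma adjusted p = 0.0212) and the other 0.48. MYF6, another factor of that family, rose by 0.21 ± 0.11 (adjusted p = 0.0377). Its probe was dim, and with Agilent's processed signals the mean was 0.66. GABPB1, a subunit of the factor that drives synaptic genes, did not pass by its brightest probe (0.04, limma adjusted p = 0.446), while its other probe fell by 0.16 (adjusted p = 0.0429).

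The synaptic scaffold, basal lamina and cholinesterase genes had 14 of 22 tested, with a median of 0.07 and 3 calls. ACHE, which degrades acetylcholine in the cleft, rose by 0.31 ± 0.19 (limma adjusted p = 0.0370), with 0.56 on replicate 1 and 0.13 on replicate 4. LAMA2, a laminin chain of the muscle basal lamina, had 0.29 ± 0.14 (adjusted p = 0.0262). Its other probe stood at 0.04 and did not pass. The adhesion molecule NCAM1 rose by 0.16 ± 0.05 (adjusted p = 0.0420) in 1 of 3 probes, and the lowest of the 3 was 0.08. With Agilent's processed signals the calls of ACHE and NCAM1 were lost (limma adjusted p = 0.0653 and 0.0610), while that of LAMA2 was kept (0.0385). The call of ACHE was also lost without replicate 2 (0.0509), and that of NCAM1 with normexp offset 0 (0.0644).

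Among other acetylcholine receptors and cholinergic genes 6 of 23 were tested. RIC3, a chaperone of nicotinic receptors, passed at 0.21 ± 0.08 (limma adjusted p = 0.0306), and its mean was 0.39 with normexp offset 0. The glycosylation enzymes of congenital myasthenia had 4 of 5 tested and a median of −0.09, and 0 passed in limma. ALG14 and DPAGT1, which act early in N-glycan assembly, had the smallest p-values of that list. Their means were −0.10 ± 0.03 and −0.11 ± 0.07 (adjusted p = 0.104 and 0.120, unadjusted p = 0.0321 and 0.0409).

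**Figure D4:**
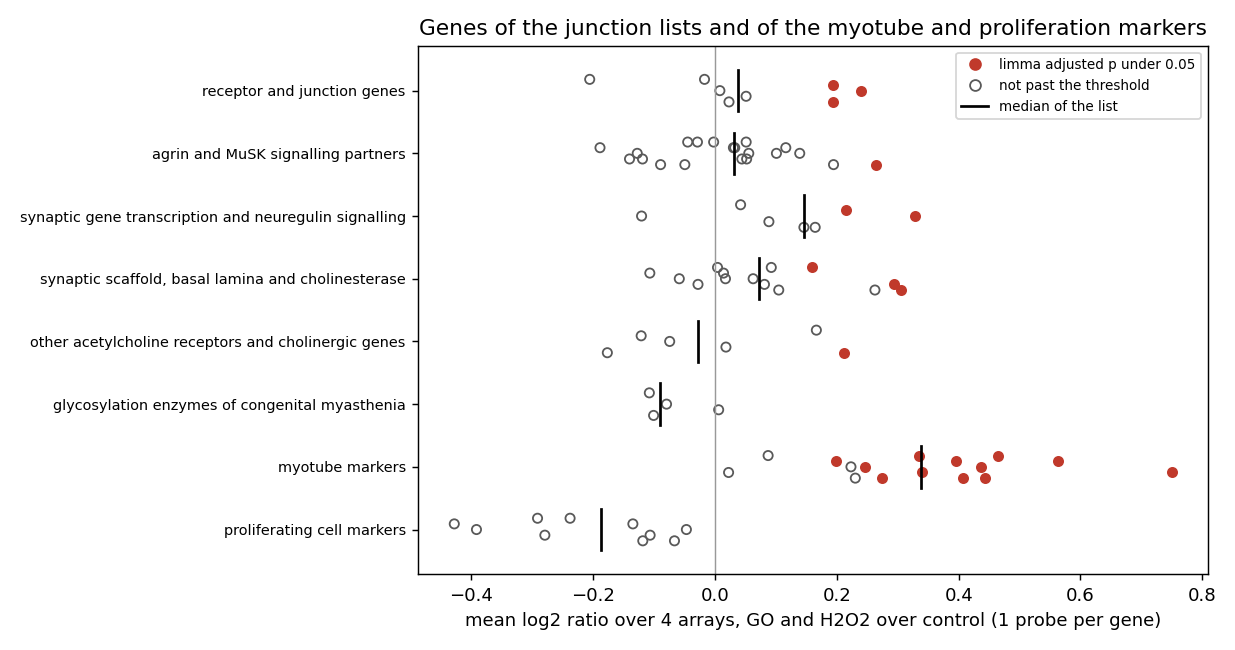
Mean log2 ratio over 4 arrays of every tested gene in the receptor and junction set, the 5 further lists and 2 marker lists, filled where the limma adjusted p is under 0.05, with the list median as a bar. The myotube markers lie above 0 with a median of 0.34 and the proliferation markers below 0 with a median of −0.19.

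Marker genes of differentiated muscle were higher beside these results. Of 22 myotube markers 16 were tested, all with a mean above 0, and 12 rose, with a median of 0.34. Per replicate the median was 0.46, 0.12, 0.39 and 0.29. The brightest were ACTC1 (cardiac actin, abundant in young myotubes; 0.44 ± 0.07, limma adjusted p = 0.0114), MYH7 (slow myosin; 0.47 ± 0.15, adjusted p = 0.0153) and MYH3 (embryonic myosin; 0.25 ± 0.14, adjusted p = 0.0377). The call of ACTC1 was lost when a running median was subtracted after loess (0.10, adjusted p = 0.208), and its mean was 0.72 with median centring. That of MYH3 was lost with Agilent's processed signals (0.16, adjusted p = 0.144) and with the running median (0.20, adjusted p = 0.0664). Without replicates 1, 3 or 4 none of these 3 genes passed. Summed over the 16 markers, normalised signals were 527814 to 708425 in the treated channel and 388501 to 528076 in the control channel, a sum that the brightest probes dominate. In the main processing, the median of these markers exceeded the mean of each of the 8 tested receptor and junction genes. The highest of those means, 0.24 for the dim probe of LRP4, ranged from 0.23 to 0.34 over the 15 alternatives. Its top value came at normexp offset 0. The order of marker median and LRP4 was not checked under the alternatives. The part of these markers in the receptor results was not tested.

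Proliferation markers had 10 of 13 genes tested, all with a mean below 0, and limma called 0 of them (0 also at an unadjusted p under 0.05). Their median per replicate was −0.24, 0.41, −0.57 and −0.42, so replicate 2 stood on the other side of 0. The brightest were CDK1 (−0.43, adjusted p = 0.174), CCNB1 (−0.29, adjusted p = 0.360) and PCNA (−0.11, adjusted p = 0.462). Without replicate 2 all 3 passed, at −0.71 (adjusted p = 0.0135), −0.58 (0.0243) and −0.24 (0.0280). Summed normalised signals of the list were 8707 to 18089 in the treated and 13662 to 17348 in the control channel. Replicate 2 was also the array on which CHRNA1 was highest and the myotube median lowest. What sets replicate 2 apart was not tested.

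The list of satellite cell and myoblast markers had 3 genes tested, all of them myogenic factors. PAX3 and PAX7 were not among them. MYOG rose as above, while MYF5 (0.09, limma adjusted p = 0.224) and MYOD1 (0.15, adjusted p = 0.234) did not pass. The rise of MYOG is not read as a change in satellite cells. Of 5 tested fibroblast markers 1 rose (THY1, 0.28, with 1 tested probe) and 1 fell (LUM, by 0.43). All 6 tested probes of LUM were called as lower, with means of −0.43 to −0.33. The brightest fibroblast markers did not pass, namely COL1A2 (0.30, adjusted p = 0.0914), COL3A1 (0.23, adjusted p = 0.134) and DCN (−0.10, adjusted p = 0.127). Over the 9 tested probes of COL1A2 the means were −0.07 to 0.30, 4 of them above 0. Over the 7 of COL3A1 they were −0.02 to 0.23, 4 of them above 0. Single values of these genes are those of the brightest probe. With median centring COL1A2 (0.60, adjusted p = 0.0178) and COL3A1 (0.49, adjusted p = 0.0225) did pass, as did COL1A2 without replicate 2 (0.42, adjusted p = 0.0308), whereas COL3A1 was 0.051 with the running median. The sign of COL1A2 turned when the running median was subtracted after loess (−0.13), and that of DCN turned with median centring (0.07). Fibroblast markers summed to 376383 to 415521 in the treated and 280025 to 397091 in the control channel after normalisation, and their part in the receptor results was not tested. No probe for Schwann cell, neuron, endothelial cell or adipocyte markers was bright enough to be tested, among 5, 4, 4 and 2 such genes on the array. Of 3 leukocyte genes on the array, CD68 was tested and had a mean of 0.005 (adjusted p = 0.942).

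The genes whose pattern over the 4 arrays was most like that of LRP4, by the root mean square difference of the log2 ratios, were ZSWIM6 (0.0125), ILKAP (0.0183) and PNPLA2 (0.0193). With 4 arrays such closeness is common, and 141 tested probes lay within 0.05 of LRP4.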

How the data were processed

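RNA of 4 treated cultures was measured against control RNA on 4 two-colour Agilent horse arrays. The deposited files hold spot intensities, read by the authors from the scans in Feature Extraction 10.10.1.1, and log10 ratios of processed red over processed green. Per the file headers, processed signals had background subtracted and dyes normalised. These log10 ratios also make up the authors' series matrix.

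Mean intensities were corrected against background medians with normexp (offset 50) and normalised by loess within each array, with control spots (1417 of 45220) at weight 0. Outlier spots were dropped (7 to 16 per array), replicate spots were averaged, and 0 gene spots were saturated. Between 54.9% and 61.4% of gene spots were well above background per channel and array. The filter kept 24229 of 43603 probes (55.6%). Loess assumes that most probes do not change at a given brightness.

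Log2 ratios were tested with limma 3.58.1 (lmFit, eBayes) in R 4.3.3, two-sided. The code was tested on simulated data with log2 ratios of 0.5 or 1 in either direction. It recovered 70% and 97% of these probes, and 8.24% of all calls were false. Ratios as small as those of the called members were not simulated. The number of arrays limits the precision, and p-values measure only the spread between these arrays of cultures of 1 line. Each ratio pairs treated and control RNA by array. Alternatives were Agilent's processed signals, the series matrix, no background correction, normexp offset 0 and median centring on the tested probes. A running median over 501 probes was another, subtracted after loess and not in its place. Further alternatives were 2 other filters, limma with trend and robust estimation, the methods' t-test, a fit without pairing, and each array left out. A mean over all probes of a gene equals the values given, since each member had 1 probe.

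Named genes were all members, per list the 4 smallest p-values past the threshold or else the 2 smallest, per marker list the 3 brightest tested genes, and the 3 patterns nearest to LRP4. THY1, LUM and GABPB1 were added after their values were seen. Members and lists were chosen with earlier results of these data known. Genes have the names of the array annotation, or of RefSeq through the gene ID.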

Additional observations from a re-analysis of the deposited data

Results flagged for a closer look

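In 31 sets of 4 arrays, Dixon's test at 95% singled out 2 values, where chance gives about 1 in 20. The log2 ratio of DPAGT1, an enzyme of N-glycan assembly, was −0.21 on replicate 1 and −0.08 to −0.07 on the other arrays (gap over range 0.941). That of PCNA, a replication factor, was 0.30 on replicate 2 and −0.29 to −0.20 on the others (0.848). Neither gene passed the limma threshold over 4 arrays, and PCNA passed without replicate 2 (−0.24, adjusted p = 0.0280).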

How the results depend on the processing

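The number of members called was 3, and 0 with median centring, 0 with the methods' t-test (3 unadjusted) and 0 to 2 when single arrays were left out. All probes called were 4137 (55.6% higher), 595 with median centring (85.9% higher), 5 with the methods' t-test (6930 unadjusted) and 0 to 3898 with single arrays left out. For the genes of the 5 lists these counts were 7, then 0, 1 and 0 to 5. Without pairing by array (no replicate block), 1 member (LRP4, limma adjusted p = 0.0415), 594 probes and 1 list gene passed. Agilent's processed signals and the series matrix, no background correction, the running median, both other filters and the trend and robust fit kept the calls of CHRNG, LRP4 and DOK7. With normexp offset 0 that of CHRNG was lost (0.0598). CHRND did not pass in any of the 15 alternatives (adjusted p 0.0625 to 0.315). Signs turned for members with means near 0: with single arrays left out CHRNA1 had −0.062 to 0.10, CHRNB1 −0.032 to 0.054 and MUSK −0.035 to 0.0084. They also turned for CD68 (−0.0095 to 0.033 with single arrays left out), COL1A2 (−0.13 with the running median) and DCN (0.068 with median centring). The causes were not tested. Dim probes such as LRP4 rest on about 100 units of signal over background.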
